A study of Mus musculus with 4 samples.

Results

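The TGF-beta ligands, receptors, Smads and partner genes were examined in terminal end buds (TEBs) and ducts of the pubertal mouse mammary gland. The family comprised 10 genes of the 28399 Ensembl gene IDs in the table, namely the ligands Tgfb1, Tgfb2 and Tgfb3, the receptors Tgfbr1, Tgfbr2 and Tgfbr3, the mediator Smad3, the inhibitor Smad7, the latency protein Ltbp1 and the target gene Tgfbi. They were chosen by name as one signalling family and found by Ensembl ID, and all 10 IDs were measured. The deposited table holds IDs without symbols, so each symbol rests on the ID list that defined the family.

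TEBs are the club-shaped tips from which mammary ducts elongate during puberty, and ducts are the epithelial tubes they leave behind. TEBs, with 2 arrays, were set against ducts, also with 2 arrays, to ask how the growing tip differs in its transcripts from the formed tube. All animals were C57/BL6 females carrying no listed transgene, allele or treatment, and their age is labelled as 5 to 6 weeks in one field and 6 to 7 weeks at death in another. Structures were released from inguinal glands with collagenase and picked by microdissection, about 300 to 400 per sample, and the submitters call the arrays technical replicates of pools. P-values here therefore measure the spread between arrays of pooled material and not between mice, and precision is limited by having 4 arrays.

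TGF-beta ligands are secreted in a latent form, held in the matrix by latent TGF-beta binding proteins, and act only after release. The active ligand binds the type II receptor, which recruits and phosphorylates the type I receptor, and this phosphorylates Smad2 and Smad3 to change transcription. In the mammary gland the pathway is known as a brake on ductal growth and side branching.

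The members formed a small group that was lower in TEBs and a larger group with differences whose intervals include 0. Ltbp1, Tgfb3 and Tgfbi were lower in TEBs by 2.19-fold, 1.92-fold and 1.72-fold, each without overlap between the structures. Of all IDs 53.4% did not overlap, and 8.23% were at least 1.5-fold lower without overlap. None of these 3 members passed limma's main test over all IDs, which called 0 IDs. Ltbp1 and Tgfb3 passed when limma's prior variance followed brightness, a fit that called 5.23% of all IDs, 1.48% as lower. The other 7 members lay between 0.15 log2 units lower and 0.34 higher in TEBs, with limma's 95% intervals all including 0. The median member was 0.12 log2 units lower in TEBs, whereas the median of all 28399 IDs was 0.11 log2 units higher. The array medians were 6.41 and 6.35 in TEBs, against 6.34 and 6.20 in ducts. A bulk sample cannot tell fewer cells of a type from less RNA per cell, and this holds for every difference given here.

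**Figure D1:**
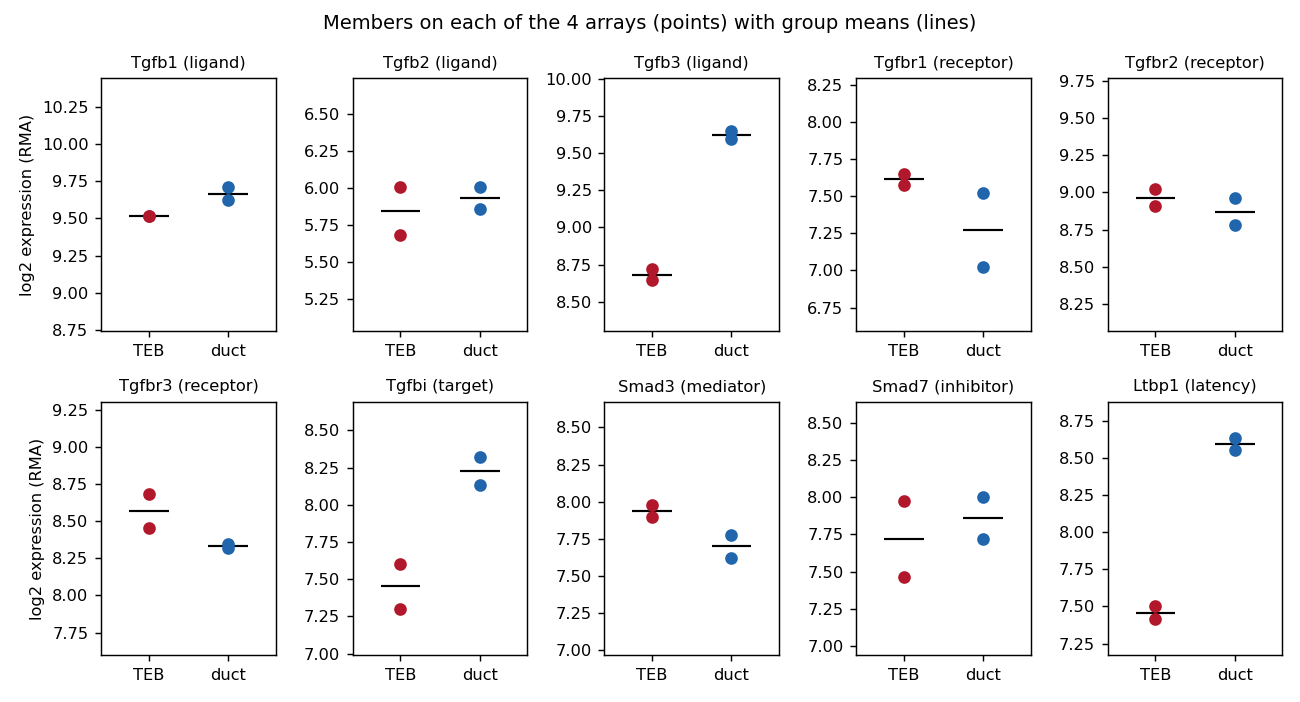
Log2 expression (RMA, y axis) of the 10 members on the 2 TEB arrays (red, left) and the 2 duct arrays (blue, right), with a line at each group mean. Every panel spans the same number of log2 units. Tgfb3, Tgfbi and Ltbp1 show the widest separation, with TEB points below duct points.

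In limma's fit over all IDs, a gene was called when its p, adjusted by Benjamini and Hochberg's method, was under 0.05 and its change at least 1.5-fold, and no member was called. The same rule called 0 of 28399 IDs (0%), with a smallest adjusted p from limma of 0.0657. At an unadjusted p under 0.05, limma marked 3 of the 10 members, all lower in TEBs, against 19.7% of all IDs in either direction and 7.27% lower. When limma's prior variance followed brightness, 2 of the 10 members passed the full rule, Ltbp1 and Tgfb3, both lower in TEBs. That fit called 5.23% of all IDs, and 1.48% of all IDs as lower in TEBs. When only IDs above the median brightness were tested, limma called the same 2 genes of 9 members. There it called 1426 of the 14199 IDs tested in either direction, and 452 of the 14199 (3.18%) as lower in TEBs.

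Counted without a variance model, 7 of the 10 members did not overlap between the structures, 3 higher and 4 lower in TEBs. Of all IDs 53.4% did not overlap, 33.8% higher and 19.6% lower, so the count of 7 of 10 is not far from the background. After quantile normalization 7 members did not overlap, 1 higher and 6 lower in TEBs, against 51.4% of all IDs, 25.6% higher and 25.9% lower. After median centring 7 members did not overlap, 2 higher and 5 lower in TEBs, against 52.5% of all IDs, 26.5% higher and 26.0% lower. A difference of at least 1.5-fold without overlap was reached by 3 members, all lower in TEBs, where 21.4% of all IDs reached it and 8.23% did so lower. At least 2-fold was reached by Ltbp1 alone of the 10, with 7.06% of all IDs in either direction and 2.63% lower. After quantile normalization and after median centring Tgfb3 joined it, where 3.42% and 3.62% of all IDs were at least 2-fold lower without overlap. The smallest two-sided p that an exact permutation test of 2 arrays against 2 can give is 0.333, so no single gene could pass such a test.

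**Figure D2:**
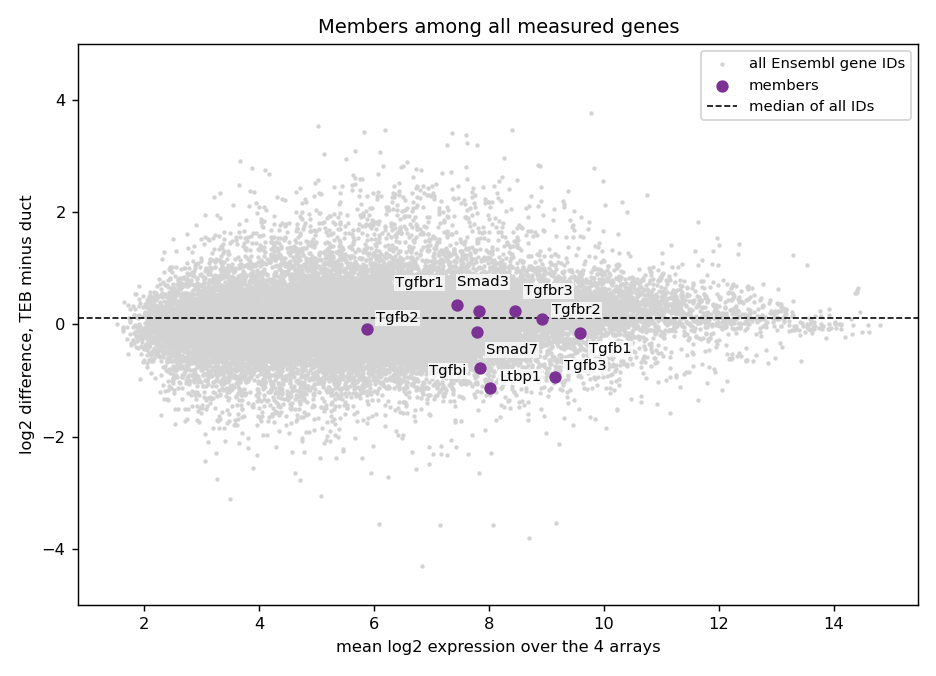
Mean log2 expression over the 4 arrays (x axis) against the log2 difference, TEB minus duct (y axis), for 28399 IDs (grey) and the 10 members (purple), with a dashed line at the median of all IDs (0.11). Ltbp1, Tgfb3 and Tgfbi lie toward the lower side of the cloud, and the other members lie near its middle.

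Among the 3 ligands, Tgfb3 had the largest difference. Tgfb3 (ENSMUSG00000021253) measured 8.72 and 8.64 log2 units on the TEB arrays, against 9.60 and 9.65 on the duct arrays. Both TEB arrays were lower than both duct arrays, and the gap of 0.88 between the nearest arrays of the 2 structures exceeded the differences within TEBs (0.074) and within ducts (0.049). The group means were 8.68 ± 0.052 in TEBs and 9.62 ± 0.035 in ducts (SD, n = 2 each), a log2 difference of -0.94 with SE 0.17 and a 95% interval from -1.39 to -0.49. Its adjusted p was 0.121 by limma, and 0.0140 when limma's prior followed brightness. Of the 28399 IDs, 940 were as low or lower in TEBs relative to ducts.

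Tgfb1 (ENSMUSG00000002603), the most studied isoform and one made by epithelial, stromal and immune cells, measured 9.51 and 9.52 in TEBs, against 9.71 and 9.62 in ducts. The structures did not overlap, but the means of 9.52 ± 0.0040 in TEBs and 9.67 ± 0.062 in ducts (SD, n = 2 each) differed by -0.15 log2 units. The 95% interval ran from -0.60 to 0.30 and the adjusted p from limma was 0.652. The difference was -0.35 after quantile normalization and -0.27 after median centring, again without overlap. With the brightness trend on these rescaled values limma's adjusted p was 0.105 and 0.204, so Tgfb1 passed on none of the 3 scales. Tgfb2 (ENSMUSG00000039239), an isoform with weak affinity for the type II receptor on its own, measured 6.00 and 5.68 in TEBs, against 6.00 and 5.86 in ducts. Its values overlapped, with a log2 difference of -0.088 (95% interval -0.63 to 0.46, adjusted p from limma 0.838). After quantile normalization and median centring the difference was -0.19 and -0.20, in both cases without overlap, and it was not called. Tgfb2 was also the only member whose mean over the arrays, 5.89, lay under the median of all IDs, 6.31, and no detection calls were used here.

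A log2 ratio of 2 genes on the same array is unchanged by a constant shift of that array, as in median centring. Quantile normalization can change it, because it moves genes by unequal amounts. On the deposited values 8 such ratios were computed, chosen after the values were seen. The log2 ratio of Tgfb3 to Tgfb1 was -0.79 and -0.87 in TEBs, against -0.11 and 0.024 in ducts, a shift of -0.79 without overlap. The log2 ratio of Tgfb3 to Tgfb2 shifted by -0.85, also without overlap, whereas that of Tgfb2 to Tgfb1 shifted by 0.063 and overlapped. Each shift is the difference between the values given for the 2 genes, so the ratios are a description without a test and add no independent evidence. They carry probe effects, so the ratio itself cannot be read as a ratio of transcripts.

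Ltbp1 (ENSMUSG00000001870), which encodes a protein that binds latent TGF-beta and anchors it in the extracellular matrix, had the largest difference of the 10. It measured 7.50 and 7.42 log2 units in TEBs, against 8.63 and 8.55 in ducts. The arrays of each structure lay within 0.083 of each other, and the gap between the structures was 1.05. Means were 7.46 ± 0.059 in TEBs and 8.59 ± 0.058 in ducts (SD, n = 2 each), a log2 difference of -1.13 with SE 0.17 and a 95% interval from -1.59 to -0.68. Its adjusted p was 0.0980 by limma, and 0.0145 with the brightness trend. In all, 542 of the 28399 IDs were as low or lower in TEBs relative to ducts. The log2 ratio of Ltbp1 to Tgfb1 was -2.01 and -2.10 in TEBs, against -1.08 and -1.07 in ducts.

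Ltbp1 has 2 annotated starts in RefSeq (GRCm38.p6), and one array value per gene does not say which of them was in use. The 250 bases before each start are shown because Ltbp1 carried the largest difference, with motif matches in capitals. The upstream one lies at chr17:75005279-75005528 and the downstream one at chr17:75178531-75178780, both on the plus strand.
Ltbp1 upstream start: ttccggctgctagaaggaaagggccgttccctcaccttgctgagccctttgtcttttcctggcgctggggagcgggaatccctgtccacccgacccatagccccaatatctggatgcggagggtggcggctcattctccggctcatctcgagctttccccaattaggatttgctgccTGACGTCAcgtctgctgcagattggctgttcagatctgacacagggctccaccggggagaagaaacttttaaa
Ltbp1 downstream start: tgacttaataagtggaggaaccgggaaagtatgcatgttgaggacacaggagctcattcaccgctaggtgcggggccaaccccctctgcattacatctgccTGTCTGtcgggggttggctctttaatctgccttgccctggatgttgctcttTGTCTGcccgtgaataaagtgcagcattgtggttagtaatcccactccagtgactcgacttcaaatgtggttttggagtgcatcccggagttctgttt
The capitals mark matches, on either strand, to 6 motifs, which were CAGACA (part of the CAGA box bound by Smad3), GTCTAGAC (the palindromic Smad element), TGANTCA (AP-1), TGACGTCA (the cyclic AMP response element), GGGCGG (GC box) and TATAAA. The 2 Smad motifs share the letters AGAC, but full matches of both can overlap only at 1 end base. The upstream window held 1 TGACGTCA, starting 73 bases before the start, and this motif occurred in 1.55% of all 32851 promoter windows of this length. The downstream window held 2 CAGACA matches, starting 149 and 98 bases before the start and printed as the reverse complement TGTCTG. Of all windows 17.1% held at least 1. A match describes letters and not a bound site.

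The 95% interval of each receptor's difference included 0. Tgfbr1 (ENSMUSG00000007613), the type I receptor kinase that phosphorylates Smads, measured 7.65 and 7.58 in TEBs, against 7.52 and 7.02 in ducts. Both TEB arrays were higher than both duct arrays by at least 0.055, but the duct arrays differed from each other by 0.50. The log2 difference was 0.34 (95% interval -0.29 to 0.97, adjusted p from limma 0.471). After quantile normalization it was 0.18, with overlap, and after median centring 0.23. On the deposited values it was 0.090 without duct replicate 2 and 0.59 without duct replicate 1, so its size rests on which duct array is used.

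Tgfbr2 (ENSMUSG00000032440), the type II receptor that binds the ligand first, measured 9.02 and 8.91 in TEBs, against 8.96 and 8.78 in ducts. The values overlapped, and the log2 difference of 0.094 (95% interval -0.39 to 0.58, adjusted p from limma 0.800) turned to -0.12 after quantile normalization and -0.020 after median centring, with no overlap after quantile normalization. Tgfbr3 (ENSMUSG00000029287), or betaglycan, a co-receptor that presents ligand and in particular the isoform encoded by Tgfb2, measured 8.68 and 8.46 in TEBs, against 8.32 and 8.35 in ducts. It did not overlap on the deposited values but did after either rescaling, and its log2 difference was 0.23 (95% interval -0.25 to 0.72, adjusted p from limma 0.516). That difference was 0.035 after quantile normalization, 0.12 after median centring and 0.12 without TEB replicate 1. The log2 ratio of Tgfbr2 to Tgfbr1 shifted by -0.25 without overlap, with 1.37 and 1.33 in TEBs and 1.44 and 1.76 in ducts. The other ratios among receptors overlapped.

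**Figure D3:**
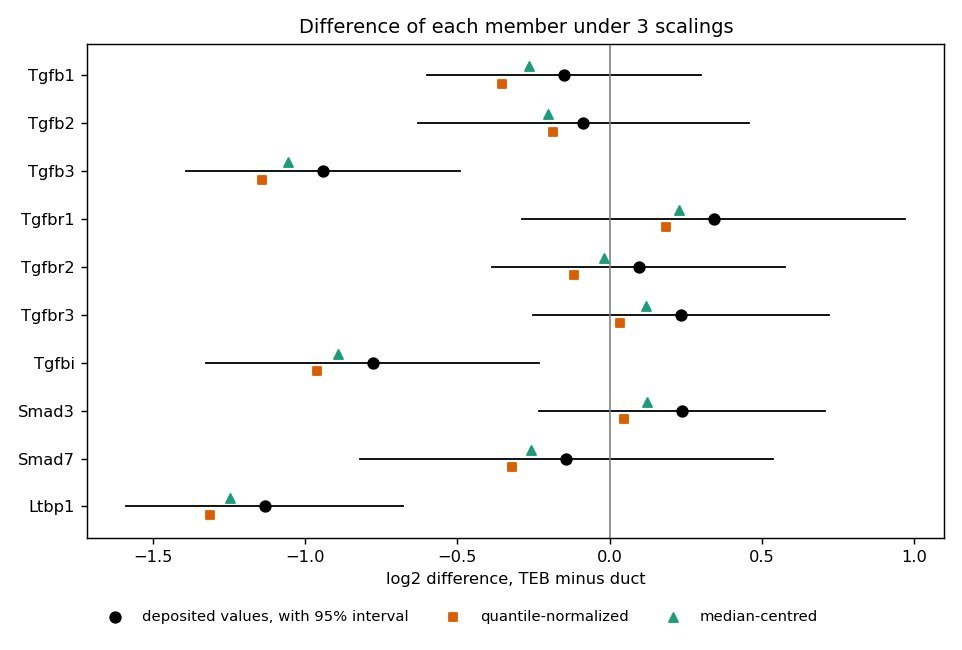
Log2 difference, TEB minus duct (x axis), of each member on the deposited values (black circles, with limma's 95% intervals), after quantile normalization (orange squares) and after median centring (green triangles). The intervals of Tgfb3, Tgfbi and Ltbp1 do not reach 0, and both rescalings move every member toward lower values in TEBs.

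Smad3 (ENSMUSG00000032402), the transcription factor activated by the type I receptor, measured 7.98 and 7.90 in TEBs, against 7.78 and 7.62 in ducts. The structures did not overlap on the deposited values or after either rescaling, and Smad3 was the one member higher in TEBs without overlap after quantile normalization. The log2 difference was 0.24 on the deposited values, 0.047 after quantile normalization and 0.12 after median centring. With a 95% interval from -0.23 to 0.71 and an adjusted p from limma of 0.496 it was not distinguishable from 0.

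Smad7 (ENSMUSG00000025880), an inhibitory Smad that is induced by the pathway and blocks the type I receptor, measured 7.97 and 7.46 in TEBs, against 7.72 and 8.00 in ducts. TEB replicate 2 gave the lowest value and duct replicate 2 the highest, and the structures overlapped. The log2 difference was -0.14 (adjusted p from limma 0.783), and its 95% interval of -0.82 to 0.53 was the widest of the 10. After quantile normalization the difference was -0.32 and after median centring -0.26, with overlap in both. Smad7 was also the only member whose values show no averaging over several numbers in their decimals. If values are means of numbers with 5 decimals, the smallest divisor that gives the other 9 (up to 60, within 0.005 units of the last decimal) ran from 4 for Tgfb1 to 17 for Tgfbi.

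Tgfbi (ENSMUSG00000035493), which encodes a secreted matrix adhesion protein named for its induction by TGF-beta, measured 7.60 and 7.30 in TEBs, against 8.32 and 8.14 in ducts. Both TEB arrays were lower than both duct arrays, and the gap of 0.53 exceeded the differences within TEBs (0.31) and within ducts (0.19). Means were 7.45 ± 0.22 in TEBs and 8.23 ± 0.13 in ducts (SD, n = 2 each), a log2 difference of -0.78 with SE 0.21 and a 95% interval from -1.32 to -0.23. Its adjusted p was 0.176 by limma, and 0.0612 with the brightness trend on the deposited values, so Tgfbi missed the threshold in both. With the trend limma's adjusted p was 0.0241 after quantile normalization and 0.0289 after median centring. Both fits were chosen after the data were seen, and no other fit run called Tgfbi. In each of these fits 3 of 10 members were called, all lower in TEBs. The first called 5.16% of all IDs, 2.67% of all IDs as lower, and the second 5.58%, with 2.44% as lower. The log2 ratio of Tgfbi to Tgfb1 shifted by -0.63 without overlap.

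The 250 bases before the annotated start of Tgfbi are shown for comparison with those of Ltbp1, since both genes were lower in TEBs. They lie at chr13:56609336-56609585 on the plus strand of GRCm38.p6 (RefSeq), with the same motifs in capitals.
Tgfbi: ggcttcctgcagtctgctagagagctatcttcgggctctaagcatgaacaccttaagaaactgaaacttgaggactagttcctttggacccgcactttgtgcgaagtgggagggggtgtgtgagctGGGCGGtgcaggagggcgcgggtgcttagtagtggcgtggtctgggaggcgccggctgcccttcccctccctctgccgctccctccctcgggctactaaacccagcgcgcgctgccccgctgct
This window held 1 GGGCGG, a motif found in 32.7% of all windows, and none of the 5 others. No motif of the 6 was shared between the Tgfbi and the Ltbp1 windows. The promoter table matched 7 of the 10 members, with 9 windows, and it gave none for Tgfb3, Tgfbr3 and Smad7. The Tgfb1 window was 75.2% G and C and held 5 GGGCGG matches. The Tgfb2 window was 53.6% G and C and held 1 CAGACA and a TATAAA that began 31 bases before the start. Among all windows 17.1% held CAGACA and 12.4% held TATAAA.

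Across the 4 pairings of a TEB with a duct array, Ltbp1 differed by -1.22 to -1.05 log2 units, Tgfb3 by -0.88 or further below 0 and Tgfbi by -1.03 to -0.53. The lowest pairing of any other member was that of TEB replicate 2 with duct replicate 2 for Smad7, at -0.54, just beyond the -0.53 of Tgfbi. Tgfb2, Tgfbr2 and Smad7 took both signs. Tgfb1 stayed between -0.20 and -0.10, Smad3 between 0.12 and 0.36, Tgfbr3 between 0.11 and 0.36 and Tgfbr1 between 0.055 and 0.63.

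**Figure D4:**
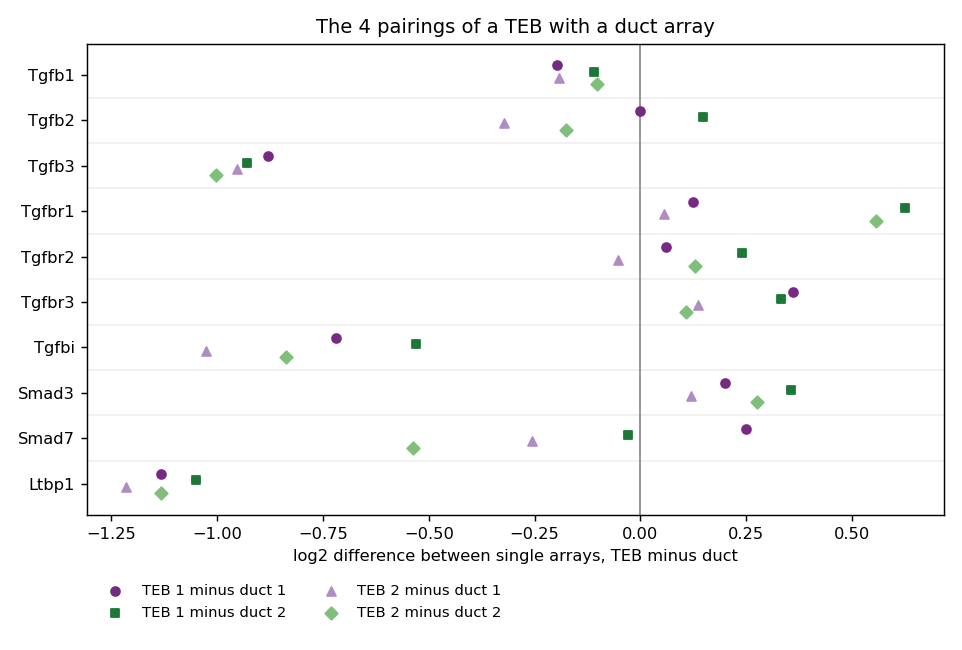
Log2 difference between single arrays, TEB minus duct (x axis), for the 4 pairings of a TEB with a duct array (4 marker shapes), by member. The markers of Ltbp1 and of Tgfb3 lie close together and far below 0, and those of Tgfb2, Tgfbr2 and Smad7 lie on both sides of 0.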

How the data were processed

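Total RNA of the pooled structures (1.5 microg) was made into biotin-labelled cRNA after ribosomal RNA removal, per the labels' protocols, and hybridised to single-colour Affymetrix arrays. The deposited table gives each array 1 log2 value for every Ensembl gene ID. The authors used RMA and the build mm9, per the submitters' processing notes. For its version, the annotation and any filter: not given in the sources used here. Scanner files were not analysed here.

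TEBs were compared with ducts by limma 3.58.1 (R 4.3.3, lmFit and eBayes) on all 28399 IDs, with no block or filter and with 2 residual and 2.51 prior degrees of freedom. Scripts were tested on simulated data. Alternatives were 2 rescalings, robust moderation, a prior variance that follows brightness, a brightness filter, other thresholds, a replicate block and leaving out each array. Same-numbered arrays deviated together with r = 0.086 across genes, and no label pairs them. All 10 members were named. Lists of other pathway genes and of cell type markers had been set by symbol, but the tables used here do not pair these IDs with symbols, so they were not applied and the labelled structures were not checked against markers. The members and lists were chosen with earlier results of these data known.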

Additional observations from a re-analysis of the deposited data

How the results depend on the processing

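Ltbp1, Tgfb3, Tgfbi, Tgfb1, Tgfbr1, Tgfbr3 and Smad3 kept their direction under all alternatives run. The sign turned for Tgfbr2 after quantile normalization (-0.12) and median centring (-0.020), with or without the brightness trend. Without TEB replicate 2 it turned for Tgfb2 and Smad7, whose differences without single arrays ran from -0.25 to 0.074 and from -0.40 to 0.11. The cause was not tested. The counts of 0 called IDs and 0 called members moved to 1485 IDs and 2 members with the brightness trend, to 1426 and 2 above the median brightness, where Tgfb2 was not tested, and to 549 and 1 at an adjusted p under 0.10. With the trend they were 1466 IDs (5.16%) and 3 members after quantile normalization, and 1586 IDs (5.58%) and 3 members after median centring. Both of these fits were chosen after seeing the data. IDs at least 2-fold apart without overlap numbered 873 above the median brightness, where fewer IDs were tested, and 2395 to 3318 without single arrays, where 1 array in a group makes no overlap easier. At a 1.5-fold floor there were 6085 such IDs (21.4%) and 3 members. At least 2-fold apart without overlap were 2004 IDs (7.06%) and 1 member on the deposited values. After quantile normalization these were 1980 IDs (6.97%) and 2 members, and after median centring 1986 IDs (6.99%) and 2 members. The replicate block left limma's calls at 0 and changed no call, while IDs at an unadjusted p under 0.05 numbered 5733 with the block and 5604 with no pairing. With 2 arrays per structure and no detection calls, small differences and signal over background could not be resolved.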
